A study of Mus musculus with 4 samples.

Results

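Cells take up iron, pass it to mitochondria for heme, store the excess in ferritin and export the rest, and 7 genes of this handling were followed across 4 forms of the mouse erythroblast line G1E. The 7 genes were chosen by symbol: Tfrc and Steap3 for uptake, Slc25a37 for entry into mitochondria, Fth1 for storage, Slc40a1 for export, Aco1 for iron sensing and Blvrb for the breakdown products of heme. They are 7 of the 2982 genes that appear in any of the authors' 6 deposited tables, out of 12931 genes tested, and 6 of the 7 had a level in every group.

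G1E was derived from cells that lack Gata1, the gene of the transcription factor that drives red cell maturation, and every group here is this line. The groups were G1E control and G1E with the wild-type factor (GATA-1 WT), with the form GATA-1 V205M or with the form GATA-1 2RA, and per the labels all 4 were treated with β-estradiol. V205M is a substitution known to weaken contact between GATA-1 and the cofactor FOG-1, and what 2RA changes is not said in the labels. RNA-seq was made from total RNA of 1 sample per group, so no difference between groups has a replicate check, and no source used here gives the time under treatment or the number of clones.

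Levels are given as scaled reads, the reads counted for a gene divided by a size factor for the library. The levels of G1E control and GATA-1 V205M are each the mean of 2 count columns, and no source used here says if a column is a culture or a run. Over the genes that appear in the tables, the 6 count columns held 276064 to 2178397 reads, fewest in the second column of G1E control and most in GATA-1 WT. Ratios below are ratios of levels, with a 95% interval that covers counting error only and says nothing of the spread between cultures. A gene is called listed where the authors' deposited table for a pair holds it, which means that it passed both the limit of 0.01 on the adjusted p and the 2-fold limit. Gata1 stood at 153 scaled reads in the control, 2652 with GATA-1 WT, 613 with GATA-1 V205M and 1421 with GATA-1 2RA, so the control library had the lowest Gata1 level. Gata1 was listed as lower in GATA-1 V205M than in GATA-1 WT (authors' log2 change -2.11). It was listed as higher in GATA-1 2RA than in GATA-1 V205M (1.21), while GATA-1 2RA and GATA-1 WT were not listed against each other. The part of the Gata1 RNA level in the differences below was not tested, and it cannot be told apart from the form of the factor. Gata2 and Kit, genes of progenitors, were lowest in GATA-1 WT, Gata2 at 773, 54.8, 1316 and 514 scaled reads and Kit at 2429, 179, 1440 and 2218 in the order just used. The summed level of 8 erythroid markers was 2248 scaled reads in the control, 65771 with GATA-1 WT, 785 with GATA-1 V205M and 2971 with GATA-1 2RA, in a list of 10 of which all 10 appear in a table. The summed level of the 5 mast cell markers found in the tables, of 10, was 5448, 183, 2433 and 2398 in the same order, of which Cpa3 and Kit make up most in the control. In GATA-1 V205M against the control, the authors' deposited table had 1 mast cell marker lower and 3 higher. The log2 changes were -7.58 for Cpa3, which fell from 2795 to 14.6 scaled reads, and 3.11 for Tpsab1, 2.03 for Hdc and 1.45 for Ms4a2. Of 10 megakaryocyte markers 3 appear in a table, and against the control 2 were higher in GATA-1 2RA and 2 lower in GATA-1 V205M. The marker Plek stood at 237, 368, 18.7 and 1319 scaled reads in the order above. None of 12 macrophage markers appears in any table. GATA-1 WT thus held most erythroid and least summed mast cell marker RNA, GATA-1 2RA and GATA-1 V205M differed in megakaryocyte markers, and the part of these shifts in the differences below was not tested. In bulk RNA, fewer cells of a type and less RNA per cell cannot be told apart.

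In erythroid cells, iron bound to transferrin enters through the transferrin receptor, is reduced in the endosome by Steap3 and reaches the mitochondrion through mitoferrin. Ferritin, a shell of heavy and light chains, holds what is not used, and ferroportin is the only known cellular iron exporter of mammals. When iron is scarce, iron regulatory proteins, among them the form of aconitase encoded by Aco1, bind hairpins called iron-responsive elements (IREs) in mRNAs. A hairpin in the 5′ untranslated region then holds back translation, while hairpins in the 3′ region protect the mRNA from decay.

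The hairpins found in 3 of the 7 mRNAs, and in the ferritin light chain mRNA Ftl1, are shown because they lie in the 5′ region in Fth1 and Slc40a1 and in the 3′ region in Tfrc. They were read from GENCODE M21 transcripts (GRCm38), 5′ to 3′ in the sense of the mRNA with T for U, and capitals mark the loop.
Fth1, 5′ untranslated region, chr19:9982732-9982760, plus strand: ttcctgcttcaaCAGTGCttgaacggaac
Ftl1, 5′ untranslated region, chr7:45459779-45459807, minus strand: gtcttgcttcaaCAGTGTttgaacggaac
Slc40a1, 5′ untranslated region, chr1:45925465-45925493, minus strand: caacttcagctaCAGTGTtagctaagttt
Tfrc, 3′ untranslated region, chr16:32631219-32631247, plus strand: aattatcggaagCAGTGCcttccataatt
Tfrc, 3′ untranslated region, chr16:32631598-32631626, plus strand: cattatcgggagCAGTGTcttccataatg
Tfrc, 3′ untranslated region, chr16:32631663-32631691, plus strand: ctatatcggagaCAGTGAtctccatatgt
Tfrc, 3′ untranslated region, chr16:32631710-32631738, plus strand: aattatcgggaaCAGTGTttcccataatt

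The search asked for the loop CAGTGN with a last base other than G, 5 paired bases on each side of it, an unpaired C below them and at least 3 of 6 further pairs. It found a match in an untranslated region of 43 of 21899 protein-coding genes (0.196%). No match was found in Steap3, Slc25a37, Aco1 or Blvrb, which says only that this pattern is not in their annotated transcripts. The search also found none in Slc11a2, Cdc14a or Epas1, which are on the list below of mRNAs known to hold an IRE. A missing match therefore does not show that an element is absent. A match is a sequence description, and RNA levels do not measure translation.

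Against the control, GATA-1 WT had more RNA of the transferrin receptor, mitoferrin, the iron sensor Aco1 and Blvrb, and less of the ferritin heavy chain. The authors' deposited table listed 4 of the 7 genes as higher (Tfrc, Slc25a37, Aco1 and Blvrb) and 1 as lower (Fth1), where 8.17% of all tested genes were listed as higher and 4.86% as lower. GATA-1 V205M against the control had 2 higher (Tfrc and Blvrb) and 1 lower (Steap3), against 4.83% and 3.32% of all tested genes. GATA-1 2RA against the control had 1 higher (Aco1) and 2 lower (Fth1 and Slc40a1), against 4.86% and 2.61%. Against GATA-1 WT, GATA-1 V205M had 1 higher (Fth1) and 4 lower (Steap3, Slc25a37, Aco1 and Blvrb), against 3.70% and 5.65%. GATA-1 2RA had 0 higher and 4 lower (Tfrc, Slc25a37, Slc40a1 and Blvrb) than GATA-1 WT, against 3.33% and 4.04%. In GATA-1 2RA against GATA-1 V205M, 1 was higher (Steap3) and 2 were lower (Tfrc and Fth1), against 3.60% and 2.62%. These 6 comparisons reuse the same 4 libraries, so they are given side by side and not as separate evidence. Each of the 7 genes is in a table, and they were chosen with earlier results of these data known. The shares of all tested genes therefore give scale only and are no measure of enrichment. With an assumed biological coefficient of variation (BCV) of 0.4, edgeR kept 1, 0, 0, 1, 0 and 0 of the listed genes in these 6 comparisons at an adjusted p below 0.01, and 4, 1, 2, 3, 2 and 1 had an unadjusted p below 0.05. With a BCV of 0.2 it kept 5, 2, 2, 5, 4 and 3.

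**Figure D1:**
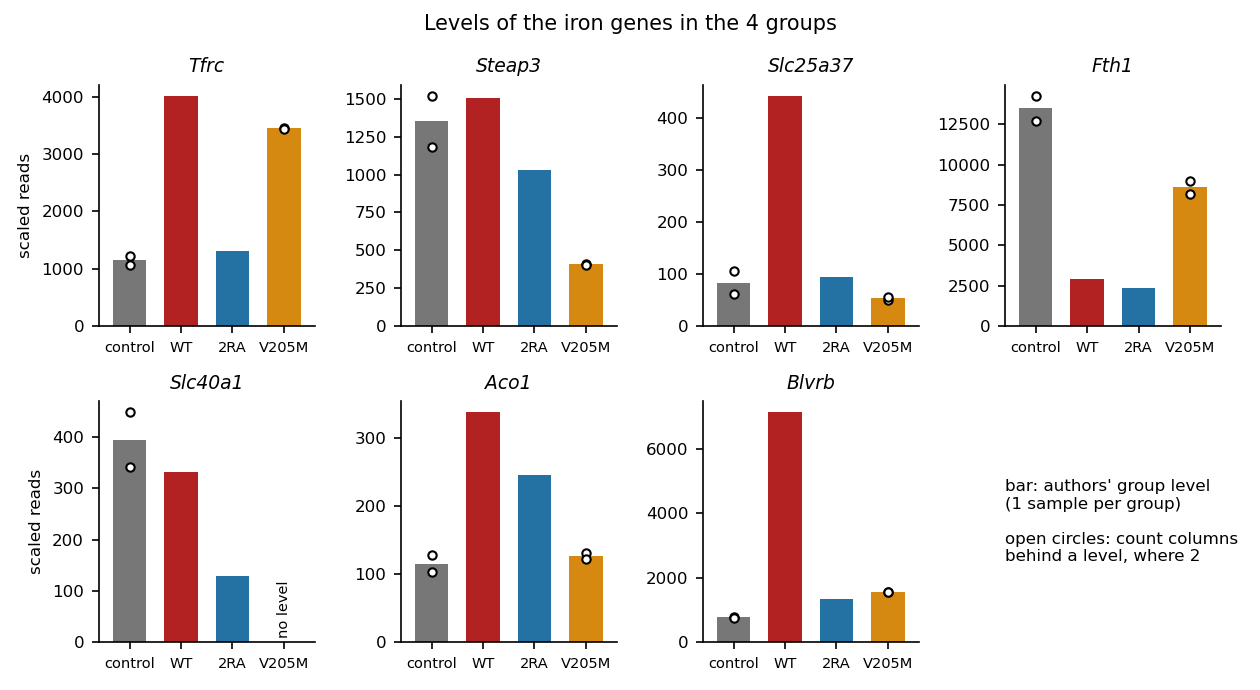
Levels of the 7 iron genes (y axis, scaled reads, each panel on its own scale from 0) in the 4 groups (x axis), with bars for the authors' level of the 1 sample per group and open circles for the 2 count columns behind the control and GATA-1 V205M levels. Tfrc was high in GATA-1 WT and GATA-1 V205M (4018 and 3451), Blvrb and Slc25a37 with GATA-1 WT (7133 and 443.4), and Fth1 in the control and GATA-1 V205M (13492 and 8597), while Slc40a1 has no level in GATA-1 V205M.

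Tfrc encodes the transferrin receptor (chromosome 16, 32608920 to 32632794, plus strand, GRCm38). It stood at 1145 scaled reads in the control, 4018 with GATA-1 WT, 3451 with GATA-1 V205M and 1306 with GATA-1 2RA. The levels thus formed a high pair, GATA-1 WT and GATA-1 V205M, and a low pair, GATA-1 2RA and the control. GATA-1 WT had 3.51-fold the control level (95% counting interval 3.30 to 3.73), with an adjusted p of 2.01e-39 in the authors' deposited table. GATA-1 V205M had 3.01-fold the control level (2.84 to 3.20), with an adjusted p of 2.59e-42 in the authors' deposited table. GATA-1 2RA was 3.08-fold lower than GATA-1 WT (2.92 to 3.24) and 2.64-fold lower than GATA-1 V205M (2.51 to 2.78), listed in the authors' deposited tables with adjusted p-values of 4.15e-29 and 3.04e-26. Neither difference inside a pair was listed. The ratio of GATA-1 2RA to the control was 1.14 (1.06 to 1.23), no wider than the 1.15-fold gap (1.03 to 1.30) between the 2 count columns of the control, 1227 and 1063. Between GATA-1 WT and GATA-1 V205M the ratio was 1.16 (1.13 to 1.20), and the sign of both unlisted differences depends on the scaling.

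Steap3, the ferrireductase that makes endosomal iron fit for export from that compartment, lies on chromosome 1 at 120190757 to 120272705, minus strand. Its levels were 1352 scaled reads in the control, 1510 with GATA-1 WT, 407.8 with GATA-1 V205M and 1032 with GATA-1 2RA. The low value was that of GATA-1 V205M alone. It was 3.31-fold below the control (3.05 to 3.60) and 3.70-fold below GATA-1 WT (3.42 to 4.0), with adjusted p-values of 8.77e-11 and 1.62e-09 in the authors' deposited tables. GATA-1 2RA had 2.53-fold the level of GATA-1 V205M (2.33 to 2.76), with an adjusted p of 6.09e-05 in the authors' deposited table. The control, GATA-1 WT and GATA-1 2RA were not listed against each other. The 2 control columns stood at 1520 and 1184 scaled reads, a 1.28-fold gap (1.15 to 1.43) that is wider than the 1.12-fold difference between GATA-1 WT and the control (1.05 to 1.19). In GATA-1 V205M the columns stood at 411.0 and 404.7. The receptor and the reductase, which act on the same endosomal iron, thus differed in GATA-1 V205M, where Tfrc was listed as higher than in the control and Steap3 as lower.

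Slc25a37, mitoferrin-1, carries iron across the inner mitochondrial membrane in developing red cells. The gene lies on chromosome 14 at 69241848 to 69285112, minus strand, and overlaps the annotated genes Gm20236 on the same strand and Gm27222, Gm27223 and Gm31748 on the other. No source used here gives the strand setting of the counting, so the split of reads among these genes is uncertain. Slc25a37 stood at 83.46 scaled reads in the control, 443.4 with GATA-1 WT, 53.40 with GATA-1 V205M and 95.02 with GATA-1 2RA. GATA-1 WT alone was high, at 5.31-fold the control (4.33 to 6.58), with an adjusted p of 1.6e-12 in the authors' deposited table. It exceeded GATA-1 V205M by 8.30-fold (6.80 to 10.2) and GATA-1 2RA by 4.67-fold (3.87 to 5.66), with adjusted p-values of 2.07e-27 and 8.61e-11 in the authors' deposited tables. The other 3 groups were not listed against each other, and they rest on few reads: 123 and 22 in the control columns, 133 with GATA-1 2RA and 59 and 56 in the GATA-1 V205M columns. The control columns differed by 1.71-fold (1.08 to 2.83), at 105.4 and 61.56 scaled reads, and the GATA-1 2RA level lies between them. The GATA-1 V205M columns, 50.73 and 56.10, both lay below the lower control column.

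Fth1, the ferritin heavy chain that oxidizes iron for storage, lies on chromosome 19 at 9980598 to 9985098, plus strand. It stood at 13492 scaled reads in the control, 2890 with GATA-1 WT, 8597 with GATA-1 V205M and 2382 with GATA-1 2RA. The control and GATA-1 V205M were high and the other two groups low. GATA-1 WT was 4.67-fold below the control (4.52 to 4.83) and GATA-1 2RA 5.66-fold below it (5.46 to 5.88), with adjusted p-values of 5.45e-23 and 1.8e-28 in the authors' deposited tables. GATA-1 V205M had 2.97-fold the GATA-1 WT level (2.88 to 3.07), and GATA-1 2RA was 3.61-fold below GATA-1 V205M (3.48 to 3.75), with adjusted p-values of 3.96e-13 and 1.6e-17 in the authors' deposited tables. GATA-1 V205M was 1.57-fold below the control (1.54 to 1.60), a difference that was not listed. Its columns, 9007 and 8192 scaled reads, both lay below the control columns, 14262 and 12725. GATA-1 2RA was 1.21-fold below GATA-1 WT (1.16 to 1.27), also not listed.

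AY036118, a noncoding RNA on chromosome 17 (39847113 to 39848035), moved with Fth1 across all 4 groups. It is annotated inside the span of a ribosomal RNA gene on the same strand (39846353 to 39848827). It stood at 4652 scaled reads in the control, 994 with GATA-1 WT, 2329 with GATA-1 V205M and 759 with GATA-1 2RA. The authors' deposited tables gave log2 changes of -2.23 for GATA-1 WT and -2.62 for GATA-1 2RA against the control, 1.23 for GATA-1 V205M against GATA-1 WT, and -1.62 for GATA-1 2RA against GATA-1 V205M. AY036118 and Fth1 were therefore listed in the same 4 comparisons, in the same directions. Per kilobase of exon, Fth1 stood at 1.72 times AY036118 in the control (1.66 to 1.77), 1.72 with GATA-1 WT (1.63 to 1.83), 1.86 with GATA-1 2RA (1.74 to 1.99) and 2.19 with GATA-1 V205M (2.12 to 2.26). The part of RNA composition in the Fth1 differences was not tested. Fth1 also has processed pseudogenes in the annotation, such as Fth-ps2 and Fth-ps3. Neither is in a table, so the split of reads between them and Fth1 is uncertain.

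The ferritin light chain gene Ftl1, which is not one of the 7 genes, did not follow Fth1. It stood at 5361 scaled reads in the control, 6204 with GATA-1 WT and 2624 with GATA-1 V205M, and has no level in GATA-1 2RA. The authors' deposited tables gave GATA-1 V205M a log2 change of -1.03 against the control (adjusted p 7.67e-16) and of -1.24 against GATA-1 WT (adjusted p 1.55e-16). Heavy chain RNA per kilobase was 1.56 times that of the light chain in the control (1.52 to 1.61), 0.289 times in GATA-1 WT (0.279 to 0.300) and 2.04 times in GATA-1 V205M (1.98 to 2.10). Light chain RNA was thus the more abundant in GATA-1 WT only among these 3 libraries.

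**Figure D2:**
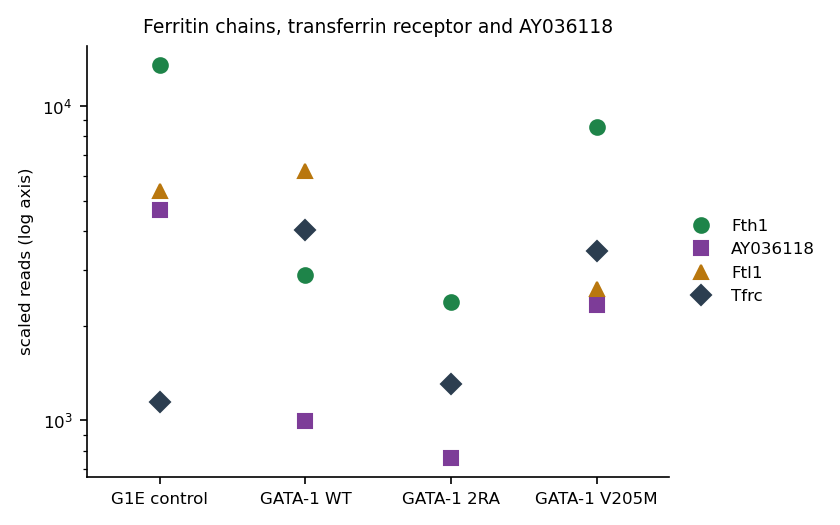
Levels of Fth1, Ftl1, Tfrc and the noncoding RNA AY036118 (y axis, scaled reads on a log axis) in the 4 groups (x axis), with 1 point per gene and sample. Fth1 and AY036118 are high and low in the same groups (13492 and 4652 in the control, 2890 and 994 with GATA-1 WT), while Ftl1 is at 6204 with GATA-1 WT and has no level in GATA-1 2RA.

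Per kilobase, Tfrc RNA stood at 0.0254 times Fth1 RNA in the control (0.0240 to 0.0269), 0.417 with GATA-1 WT (0.401 to 0.433), 0.164 with GATA-1 2RA (0.155 to 0.174) and 0.120 with GATA-1 V205M (0.117 to 0.124). Every group with a GATA-1 form thus had more receptor RNA per ferritin heavy chain RNA than the control, by 16.4-fold with GATA-1 WT, 6.46-fold with GATA-1 2RA and 4.73-fold with GATA-1 V205M. These ratios do not depend on the scaling between libraries. They do carry the Fth1 differences, which AY036118 shared and in which the part of RNA composition was not tested. In GATA-1 V205M the ratio combines 3.01-fold more Tfrc, which was listed, with 1.57-fold less Fth1, which was not. In GATA-1 2RA it combines 5.66-fold less Fth1, which was listed, with 1.14-fold more Tfrc, which was not.

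Slc40a1, ferroportin, lies on chromosome 1 at 45908068 to 45926523, minus strand. Its levels were 394.3 scaled reads in the control, 331.9 with GATA-1 WT and 128.6 with GATA-1 2RA, and its level in GATA-1 V205M is not known, since no table of a pair with that group holds it. GATA-1 2RA was the low group, at 3.07-fold below the control (2.58 to 3.66) and 2.58-fold below GATA-1 WT (2.18 to 3.07). The adjusted p-values in the authors' deposited tables were 0.000192 and 0.00796. GATA-1 WT was 1.19-fold below the control (1.05 to 1.35) and not listed, and its level lay just under the lower of the 2 control columns, 447.3 and 341.4.

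Aco1 encodes cytosolic aconitase, which without its iron-sulfur cluster acts as iron regulatory protein IRP1 (chromosome 4, 40143081 to 40198338, plus strand). It stood at 116.0 scaled reads in the control, 338.2 with GATA-1 WT, 126.9 with GATA-1 V205M and 246.5 with GATA-1 2RA. GATA-1 WT and GATA-1 2RA were high and the control and GATA-1 V205M low. Against the control, GATA-1 WT had 2.92-fold (2.41 to 3.55) and GATA-1 2RA 2.12-fold (1.74 to 2.61), with adjusted p-values of 1.98e-07 and 0.0012 in the authors' deposited tables. GATA-1 V205M was 2.67-fold below GATA-1 WT (2.30 to 3.09), with an adjusted p of 1.43e-08 in the authors' deposited table. GATA-1 V205M had 1.09-fold the control level (0.886 to 1.35), inside the gap between the control columns, 128.5 and 103.5. The difference of GATA-1 2RA from the control falls under 2-fold with other settings, at a log2 change of 0.93 with the first control column alone, 0.62 with TMM scaling and 0.51 with median scaling. Median scaling also takes GATA-1 WT against the control (0.77) and GATA-1 V205M against GATA-1 WT (-0.88) under 2-fold.

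Blvrb, biliverdin reductase B, an enzyme abundant in red cells, lies on chromosome 7 at 27447978 to 27466144, plus strand. It stood at 779.3 scaled reads in the control, 7133 with GATA-1 WT, 1566 with GATA-1 V205M and 1343 with GATA-1 2RA. GATA-1 WT was far above all others, at 9.15-fold the control (8.54 to 9.82), and this was the widest ratio to the control among the 7 genes in any group. The authors' deposited table gave it an adjusted p of 5.06e-123. GATA-1 WT exceeded GATA-1 2RA by 5.31-fold (5.06 to 5.58) and GATA-1 V205M by 4.56-fold (4.38 to 4.73), with adjusted p-values of 3.72e-61 and 1.39e-77 in the authors' deposited tables. GATA-1 V205M had 2.01-fold the control level (1.86 to 2.17), with an adjusted p of 1.13e-16 in the authors' deposited table. That ratio sits at the 2-fold limit, with a log2 change of 0.97 from the first control column alone and 0.76 with median or TMM scaling. GATA-1 2RA had 1.72-fold the control level (1.59 to 1.87) and was not listed, and it was 1.17-fold below GATA-1 V205M (1.10 to 1.23), also not listed. The listing thus parts 2 mutant forms whose levels were close.

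**Figure D3:**
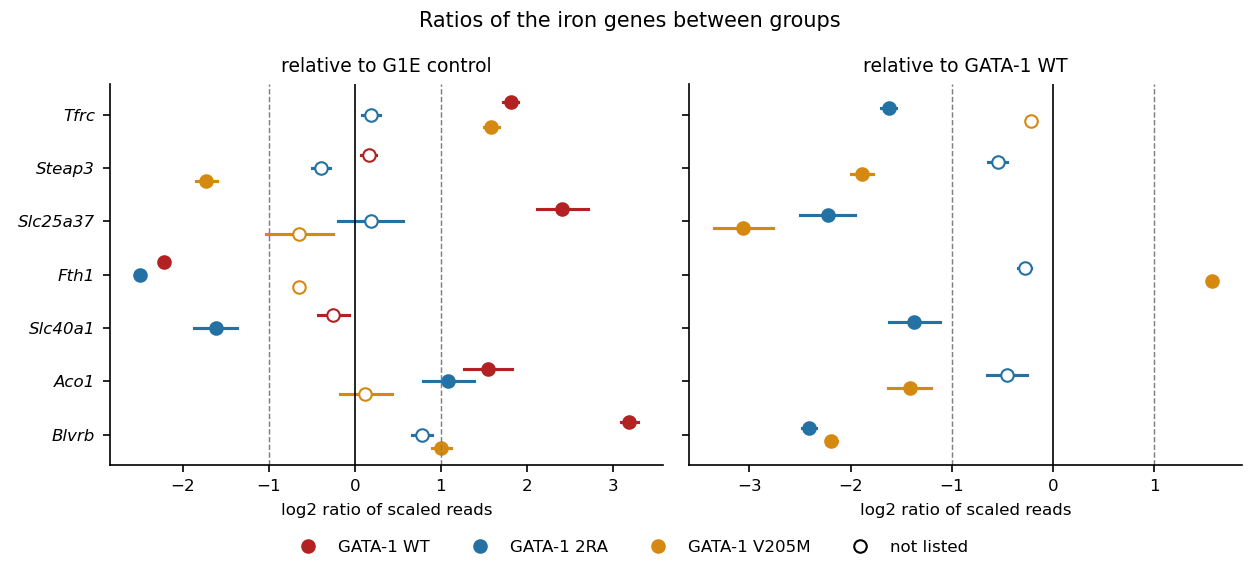
Log2 ratio of scaled reads for each gene (y axis) to G1E control (left) and to GATA-1 WT (right), with horizontal lines for 95% counting intervals, filled points for genes listed by the authors, open points for genes not listed and dashed lines at a 2-fold change. GATA-1 V205M is close to GATA-1 WT for Tfrc and far from it for Slc25a37 (8.30-fold lower), while GATA-1 2RA is close to GATA-1 WT for Fth1 and far from it for Tfrc (3.08-fold lower).

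The 5 genes listed between GATA-1 WT and the control can be placed on a scale from the control (0%) to GATA-1 WT (100%) in log2 scaled reads. GATA-1 2RA stood at 10.5% for Tfrc, 7.72% for Slc25a37, 24.6% for Blvrb, 70.4% for Aco1 and 113% for Fth1. GATA-1 V205M stood at 87.9% for Tfrc, -26.5% for Slc25a37, 31.5% for Blvrb, 8.32% for Aco1 and 29.2% for Fth1. When levels were centred on the median of the genes with 4 levels, GATA-1 2RA stood at -36.5%, -23.3%, 8.68%, 66.2% and 103% for the same genes in the same order, and GATA-1 V205M at 130%, -53.4%, 31.8%, -14.3% and 29.8%. Under either scaling, Slc25a37 and Blvrb were nearer the control than GATA-1 WT with both mutant forms, Tfrc was nearer GATA-1 WT in GATA-1 V205M only, and Aco1 and Fth1 were nearer it in GATA-1 2RA only. On which side of the control or of GATA-1 WT a position falls depends on the scaling for Tfrc, for Slc25a37 in GATA-1 2RA and for Aco1 in GATA-1 V205M. These positions are descriptions of 4 libraries with no test.

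Levels also depend on how libraries are scaled. For the 1157 genes with a level in all 4 groups, each log2 level was centred on the mean of its gene over the groups. The median of these centred values exceeded that of the control by 0.77 with GATA-1 WT, 0.57 with GATA-1 2RA and 0.24 with GATA-1 V205M. These genes all passed the 2-fold filter in some pair, so this shift of the median is set in part by that filter. This shift is smaller than the 2-fold limit, so it cannot turn a listed difference, and it moves every gene of a pair alike. For GATA-1 WT against the control the centred log2 changes were 1.04 for Tfrc, 1.63 for Slc25a37, -2.99 for Fth1, 0.77 for Aco1 and 2.42 for Blvrb. Of the 16 unlisted differences with a value, 5 changed sign: Steap3 with GATA-1 WT (0.16 to -0.61), Aco1 with GATA-1 V205M (0.13 to -0.11), Tfrc and Slc25a37 with GATA-1 2RA (each 0.19 to -0.38), all against the control, and Tfrc in GATA-1 V205M against GATA-1 WT (-0.22 to 0.31). The direction of these 5 differences therefore depends on the scaling.

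Per kilobase of exon, Fth1 had the highest level of the 7 genes in the control (8660 scaled reads per kilobase), GATA-1 2RA (1529) and GATA-1 V205M (5518), and Blvrb in GATA-1 WT (5045, with Fth1 at 1855). Blvrb came second in the other 3 groups, at 551, 950 and 1107. Tfrc came just behind Steap3 in the control (220 against 239) and ahead of it in the other groups, at 773 with GATA-1 WT, 664 with GATA-1 V205M and 251 with GATA-1 2RA. The lowest levels were those of Slc25a37 in the control, GATA-1 V205M (12.8) and GATA-1 2RA (22.8), and of Aco1 with GATA-1 WT (88.3). Close above Aco1 with GATA-1 WT were Slc40a1 at 98.5 and Slc25a37 at 106.

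Of 64 symbols of other genes of iron handling, older names included, 11 (17.2%) appear in a table, beside 23.1% of all tested genes. How many of the 64 were among the tested genes is not known, so the share of those tested may be higher. The same holds for the lists below. Over all 64 symbols, GATA-1 WT against the control had 5 higher (7.81% of the list, beside 8.17% of all tested genes) and 0 lower, close to the background. Their median deposited log2 change was 1.39, beside 1.24 over all 1685 genes of that table. Among them, in the authors' deposited table, were the exocyst gene Exoc6 (1.74) and the sorting nexin Snx3 (1.27), both known for recycling of the transferrin receptor, and Glrx5 (1.70) and Isca1 (1.39), which act in iron-sulfur cluster assembly. GATA-1 2RA against the control had 0 higher and 4 lower (6.25%, beside 2.61% of all tested genes, with a median of -1.49 beside 1.24 over 965 genes), and GATA-1 V205M against the control had 1 higher and 2 lower (1.56% and 3.12%, beside 4.83% and 3.32%, with a median of -1.03 beside 1.11 over 1054 genes). Against GATA-1 WT, GATA-1 V205M had 0 higher and 3 lower (4.69%, beside 5.65%, with a median of -1.15 beside -1.16 over 1210 genes) and GATA-1 2RA 0 higher and 3 lower (4.69%, beside 4.04%, with a median of -1.21 beside -1.07 over 954 genes). In GATA-1 2RA against GATA-1 V205M 1 was lower, Nfu1 at -1.11 (1.56%, beside 2.62%, and beside a median of 1.19 over 805 genes). Medians here and below keep their sign, and every listed gene is past the 2-fold limit. The median over all genes of a table thus depends on its mix of higher and lower genes and is no measure of effect size. Glrx5 and Slc48a1 were the only genes of this list with a level in every group. Glrx5 stood at 599 scaled reads in the control, 1939 with GATA-1 WT, 874 with GATA-1 V205M and 593 with GATA-1 2RA. For Glrx5 only GATA-1 WT was thus high, as for Slc25a37. Slc48a1, a heme transporter, stood at 1217, 853, 524 and 368 scaled reads in the same order, highest in the control and lowest in GATA-1 2RA. The importer Slc11a2 was lower in GATA-1 2RA than in the control, at 129 against 308 scaled reads (log2 change -1.26 in the authors' deposited table).

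Heme synthesis, which uses the iron that mitoferrin delivers, had 12 of its 13 genes in a table. GATA-1 WT against the control had 11 higher (84.6%, beside 8.17% of all tested genes) and 0 lower, with a median deposited log2 change of 2.26 beside 1.24 over all genes of that table. GATA-1 V205M against the control had 4 higher and 1 lower (30.8% and 7.69%, beside 4.83% and 3.32%), with a median of 1.60 beside 1.11. GATA-1 2RA against the control had 3 higher and 0 lower (23.1%, beside 4.86%), with a median of 1.66 beside 1.24. Against GATA-1 WT, GATA-1 V205M had 0 higher and 10 lower (76.9%, beside 5.65%; median -2.74 beside -1.16) and GATA-1 2RA 0 higher and 11 lower (84.6%, beside 4.04%; median -1.44 beside -1.07). GATA-1 2RA against GATA-1 V205M had 2 higher and 1 lower (15.4% and 7.69%, beside 3.60% and 2.62%), with a median of 1.64 beside 1.19. The 4 with the largest changes in the authors' deposited table for GATA-1 WT against the control were Alas2 (7.46), Abcb10 (5.16), Slc25a38 (3.69) and Uros (2.62). Abcb10, a mitochondrial transporter known to bind mitoferrin-1, stood at 89.6 scaled reads in the control, 3195 with GATA-1 WT, 272 with GATA-1 V205M and 844 with GATA-1 2RA. It was listed as higher than the control in all 3 groups with a GATA-1 form, while Slc25a37 was listed as higher in GATA-1 WT only.

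Fth1, Slc40a1 and Blvrb also belong to a list of 20 genes linked to BACH1, the heme-sensing repressor, and NRF2, the activator that competes with it, and 12 of these appear in a table. Against the control, 4 were higher and 1 lower in GATA-1 WT (20% and 5%, beside 8.17% and 4.86% of all tested genes), 5 and 1 in GATA-1 V205M (25% and 5%, beside 4.83% and 3.32%) and 4 and 2 in GATA-1 2RA (20% and 10%, beside 4.86% and 2.61%). Against GATA-1 WT, 3 were higher and 4 lower in GATA-1 V205M (15% and 20%, beside 3.70% and 5.65%) and 1 and 3 in GATA-1 2RA (5% and 15%, beside 3.33% and 4.04%). Between GATA-1 2RA and GATA-1 V205M the counts were 2 and 2 (10% each, beside 3.60% and 2.62%). The median deposited log2 changes of the 6 comparisons in that order were 2.88, 1.35, 1.75, -1.14, -1.31 and 0.13, beside 1.24, 1.11, 1.24, -1.16, -1.07 and 1.19 over all genes of each table. The value 0.13 lies between 2 higher and 2 lower genes, and no listed gene has it. Bach1 itself stood at 38.1 scaled reads in the control, 487 with GATA-1 WT, 435 with GATA-1 V205M and 373 with GATA-1 2RA, and its partner Mafk at 41.4, 304, 138 and 198. Both, and the NRF2 gene Nfe2l2, were listed as higher than the control in all 3 groups. The higher counts against the control thus include these regulators themselves. The list was also known to hold Fth1, Slc40a1 and Blvrb, so its shares in part repeat their listing. The peroxiredoxin Prdx1 (447, 273, 1382 and 687) was highest in GATA-1 V205M, and Srxn1, with 27.7 in the control, 120 with GATA-1 2RA and 44.5 with GATA-1 V205M, was higher in GATA-1 2RA than in the control (log2 change 2.12 in the authors' deposited table). The 3 iron genes on this list thus did not share a direction, since GATA-1 WT had more Blvrb and less Fth1 than the control and Slc40a1 was not listed there.

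Of 11 mRNAs known to hold an IRE, 6 appear in a table, and 3 of them are Tfrc, Fth1 and Slc40a1. Against the control, 2 were higher and 1 lower in GATA-1 WT (18.2% and 9.09%, beside 8.17% and 4.86% of all tested genes), 2 and 1 in GATA-1 V205M (18.2% and 9.09%, beside 4.83% and 3.32%), and 0 and 3 in GATA-1 2RA (27.3% lower, beside 2.61%). Against GATA-1 WT, 1 was higher and 2 lower in GATA-1 V205M (9.09% and 18.2%, beside 3.70% and 5.65%), and 0 and 3 in GATA-1 2RA (27.3% lower, beside 4.04%). Between GATA-1 2RA and GATA-1 V205M the counts were 0 and 3 (27.3% lower, beside 2.62%). The list was known to hold Tfrc, Fth1 and Slc40a1, so these shares in part repeat their listing. The rest of the counts come from Alas2, Ftl1 and Slc11a2. The median deposited log2 changes in that order were 1.81, 1.59, -1.62, -1.24, -1.62 and -1.85, and in each comparison except GATA-1 V205M against GATA-1 WT, where it is that of Ftl1, this median is the value of Tfrc, Fth1 or Slc40a1 itself. Fth1 and Slc40a1, each with a hairpin in the 5′ untranslated region, were both listed as lower in GATA-1 2RA than in the control. Fth1 and Ftl1, which also share that position, differed in GATA-1 WT, where Fth1 alone was listed against the control.

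The genes whose profile over the 4 groups was most like each of the 6 fully measured genes were sought among 1118 genes with at least 50 scaled reads in some group, by the root mean square difference of centred log2 levels. For Tfrc these were Gnai3 (0.061), Tpi1 (0.115) and Odc1 (0.150), and for Steap3 St3gal1 (0.047), Glns-ps1 (0.102) and Mau2 (0.105). For Slc25a37 they were Pfkfb4 (0.149), Dusp1 (0.166) and 9330020H09Rik (0.172), and for Aco1 Dsn1 (0.072), Slc43a3 (0.091) and 4632427E13Rik (0.094). For Blvrb they were Snrpn (0.119), Dennd2c (0.133) and Selenbp1 (0.156). For Fth1 they were AY036118 (0.141) and 2 processed pseudogenes, Npm3-ps1 (0.150) and Gm6977 (0.228). Npm3-ps1 stood at 834, 193, 635 and 194 scaled reads and Gm6977 at 1231, 399, 981 and 306 in the control, GATA-1 WT, GATA-1 V205M and GATA-1 2RA. The 7 iron genes themselves were left out of the search. With 4 points per gene, likeness is a description of these libraries.

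Promoter windows from 250 bases before to 50 after a start were at hand for 5 of the 7 genes (RefSeq, GRCm38.p6). The GATA motifs searched on both strands were AGATAA, the variant TGATAA, the variant AGATAG and the variant TGATAG, and a window counted once however many it held. They were found in 3 of their 11 windows, at alternative starts of Steap3, Fth1 and Blvrb, and in 29.8% of 32851 windows of all genes.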

How the data were processed

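RNA-seq of 4 samples, 1 per group, was analysed from the authors' 6 deposited tables. The mm10 build and the tools deepTools, TopHat, Cuffdiff and Cufflinks are named in the submitters' processing notes, without versions or roles. The signal the authors deposited is a group's mean read count divided by size factors, and whole reads were recovered from it for 100.0% of levels. The authors also deposited the ratio (fold) of the 2 levels, its log2 value and a p-value with a Benjamini-Hochberg adjusted p-value, which fits 12931 tested genes. The table of GATA-1 2RA against GATA-1 V205M holds rounded values, so its number of tested genes was taken to be the same. The tables hold only genes past a 2-fold change with the adjusted p under 0.01, and a level in a pair that does not list the gene comes from other tables. The authors' test may treat count columns as replicates.

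Here, levels were joined by symbol (Python 3.11.15, pandas 2.3.3, scipy 1.17.1). For log2 changes, 1 scaled read was added to each level. The 95% intervals are exact Clopper-Pearson intervals conditional on the sum, on effective read counts that weight each count column as the deposited mean does. The plan named pooled reads, which left some deposited ratios outside their own interval, so pooled reads became an added alternative, chosen after the data were seen. The alternatives planned were stricter limits, a minimum of 10 scaled reads, edgeR 4.0.16 (R 4.3.3) likelihood ratio tests with an assumed BCV and adjustment over the listed genes of a pair, other pseudocounts, other scaling and single count columns. The recovery and the edgeR test were tested on simulated data. Coordinates, exon lengths and hairpins came from GENCODE M21.

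The 7 genes, the lists and the tests were chosen with earlier results of these data known. Besides the 7 genes, Gata1, Gata2 and Kit as checks of the labels, per list the 4 genes with the largest change in GATA-1 WT against the control (or over all 6 tables where fewer were listed there), and the 3 nearest profiles per gene were named by rule. Slc48a1, Nfu1, Nfe2l2, Cdc14a, Epas1 and the pseudogenes Fth-ps2 and Fth-ps3 were added after the data were seen.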

Additional observations from a re-analysis of the deposited data

How the results depend on the processing

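No paired analysis was possible because each group is 1 sample, and for the same reason no sample could be left out. A limit of 4-fold in place of 2-fold left 3, 0, 1, 2, 2 and 0 of the 5, 3, 3, 5, 4 and 3 listed iron genes, in the order GATA-1 WT, GATA-1 V205M and GATA-1 2RA against the control, GATA-1 V205M and GATA-1 2RA against GATA-1 WT, and GATA-1 2RA against GATA-1 V205M. In the same order, edgeR with an assumed BCV of 0.4 left 1 (Blvrb), 0, 0, 1 (Slc25a37), 0 and 0, with 4, 1, 2, 3, 2 and 1 at an unadjusted p below 0.05. Over all listed genes that setting called 122 higher and 110 lower, 54 and 68, 92 and 66, 80 and 96, 114 and 81, and 116 and 70, and a BCV of 0.2 called 922 and 596, 467 and 373, 528 and 294, 387 and 629, 392 and 462, and 421 and 295. These adjustments run over genes the authors had already filtered. A BCV of 0.2 kept all iron genes except Blvrb in GATA-1 V205M (edgeR adjusted p 1.836e-02) and Aco1 in GATA-1 2RA (2.033e-02), both against the control. An adjusted p below 0.001 and a minimum of 10 scaled reads kept each count within 1.5 times. Of 159 alternative log2 values for the 23 listed differences, 101 stayed within the counting interval and 58 did not, 21 each with median and TMM scaling. None changed sign, which says nothing for the 46 values with another scaling, since the shift there is below the 2-fold limit. Median scaling moves every gene of GATA-1 WT against the control by 0.77, for example Tfrc from 1.81 to 1.04. Median scaling took Aco1 under 2-fold in GATA-1 WT (0.77) and GATA-1 2RA (0.51) against the control and in GATA-1 V205M against GATA-1 WT (-0.88), and Blvrb in GATA-1 V205M against the control (0.76). TMM scaling took the first 2 Aco1 values to 0.88 and 0.62 and Blvrb to 0.76. Slc25a37 in GATA-1 WT against the control was 2.06 and 2.83 by single control columns.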
